A study of Mus musculus with 6 samples.

Results

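Ppp1r3b, Ppp1r3c and Ppp1r3g encode glycogen-targeting subunits of protein phosphatase 1, and their transcripts are described here in each of 6 mouse livers. They were found by symbol and are 3 of the 332 genes in the authors' deposited table. That table is a selection: the largest unadjusted p in it is 0.0499, and the smallest log2 fold change between gigantol and vehicle livers is 1.00 in size. The 3 genes were also picked with their values in view, so their differences between the groups are a description and carry no test here. The gigantol group was 3 male Kunming mice, an outbred stock, given gigantol by mouth at 10 mg/kg, and the vehicle group was 3 such mice given the same volume of vehicle. All were 6 to 8 weeks old, weighed 20 to 28 g and gave their livers 4 h after the dose. Gigantol, a plant bibenzyl known from Dendrobium orchids, is called by the series title an agonist of both PPARα and PPARγ. Each liver gave 1 ribosomal-RNA-depleted, stranded library, and all 6 carry 1 batch label. PANC1, a line of human pancreatic cancer cells, stands in the sample titles and column names. The labels of organism, tissue and treatment describe mouse liver, all 332 gene IDs are mouse IDs, and the grouping follows the treatment label.

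Protein phosphatase 1 removes phosphate from many proteins, and regulatory subunits decide where it acts. The glycogen-targeting subunits bind both the catalytic subunit and glycogen, and so bring the phosphatase to glycogen synthase, which it switches on, and to glycogen phosphorylase, which it switches off. Ppp1r3b encodes GL, the main form in liver. Ppp1r3c encodes PTG (protein targeting to glycogen), found in liver, muscle and fat. Ppp1r3g encodes a further form whose transcript is known in mouse liver to be higher in fasting and lower after feeding. The labels state no feeding condition.

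Promoter letters are shown first, as a description only. RefSeq promoters (GRCm38.p6) matched Ppp1r3c and Ppp1r3g by symbol, 2 of the 3 genes. The 250 bases before the annotated start lie at chr19:36736605-36736854 on the minus strand for Ppp1r3c and at chr13:35967656-35967905 on the plus strand for Ppp1r3g, and capitals mark a motif match. These positions are not on the build of the deposited table, whose own positions are given with each gene below.
Ppp1r3c: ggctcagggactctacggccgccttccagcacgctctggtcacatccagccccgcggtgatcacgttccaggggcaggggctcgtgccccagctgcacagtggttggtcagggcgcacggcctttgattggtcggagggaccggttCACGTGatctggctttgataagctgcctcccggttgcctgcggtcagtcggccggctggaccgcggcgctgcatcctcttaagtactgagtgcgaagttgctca
Ppp1r3g: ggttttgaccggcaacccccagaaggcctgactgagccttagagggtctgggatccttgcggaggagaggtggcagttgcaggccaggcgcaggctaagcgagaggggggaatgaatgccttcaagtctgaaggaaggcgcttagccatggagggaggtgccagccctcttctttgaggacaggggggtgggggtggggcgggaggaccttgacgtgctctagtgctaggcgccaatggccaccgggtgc
Both strands of the window, which runs on for 50 bases after the start, were searched for 5 sets of letters. CACGTG, the E-box core, occurred once in the Ppp1r3c window, 104 bases before the start, and was not found in that of Ppp1r3g. It was present in 7.15% of the 32851 promoters of the same length. TGTTTAC (forkhead), TGACGTCA (cyclic AMP response), the direct repeat 1 element (AGGTCA repeated after 1 base) and TTCNNNGAA (STAT) were found in neither window, and 3.65%, 1.79%, 0.0396% and 8.30% of all promoters held them. The upstream bases were 64.4% G or C in Ppp1r3c and 63.2% in Ppp1r3g, against a median of 52.4% over all promoters. Any link between these letters and the levels of the genes was not tested.

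Levels are CPM, the reads of a gene scaled by the authors to the size of its library. The libraries held about 21200000 to 24600000 reads in gigantol livers and 23100000 to 26700000 in vehicle livers, worked out from the steps between values. A second fit of the step, from each library's lowest values alone, gave the same step in all libraries but vehicle liver 3, so read numbers are inferred and that library's is the least sure. The intervals below are exact 95% Poisson intervals on those inferred reads and cover counting error only.

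Ppp1r3b (ENSMUSG00000046794, chromosome 8 from 35842893 to 35855293 on the plus strand, as the table places it on a mouse build it does not name) was higher in gigantol livers. It had 312, 63.4 and 170 CPM in gigantol livers 1, 2 and 3, against 54.2, 58.9 and 56.6 CPM in vehicle livers 1, 2 and 3. The groups did not overlap, but gigantol liver 2 lay just above the vehicle livers while gigantol livers 1 and 3 were far above them. The interval of gigantol liver 2, 60.0 to 66.8 CPM, overlapped that of vehicle liver 2, 56.0 to 61.9 CPM. Means were 182 ± 125 CPM in gigantol and 56.5 ± 2.37 CPM in vehicle livers (SD, n = 3 each), a ratio of 3.21. Without gigantol liver 1 the gigantol mean was 117 CPM and the ratio 2.06.

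Ppp1r3c (ENSMUSG00000067279, chromosome 19 from 36709131 to 36714053 on the minus strand) was also higher in gigantol livers. It had 146, 26.5 and 68.5 CPM in gigantol livers 1, 2 and 3, against 15.8, 17.2 and 15.5 CPM in vehicle livers 1, 2 and 3. The groups did not overlap, and gigantol liver 2 was again the one nearest to vehicle. Here its interval, 24.4 to 28.8 CPM, stood clear of the highest vehicle interval, 15.6 to 18.9 CPM. Means were 80.2 ± 60.4 CPM in gigantol and 16.2 ± 0.924 CPM in vehicle livers (SD, n = 3 each), a ratio of 4.97, or 2.94 without gigantol liver 1.

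Ppp1r3g (ENSMUSG00000050423, chromosome 13 from 36142822 to 36154371 on the plus strand) was lower in gigantol livers. It had 18.0, 6.81 and 12.5 CPM in gigantol livers 1, 2 and 3, against 74.4, 43.0 and 54.7 CPM in vehicle livers 1, 2 and 3. Every gigantol liver was below every vehicle liver, and gigantol liver 2, the nearest to vehicle for the other two subunits, was the farthest from it here. Its value rested on 145 reads, with an interval of 5.74 to 8.01 CPM. Means were 12.5 ± 5.61 CPM in gigantol and 57.4 ± 15.9 CPM in vehicle livers (SD, n = 3 each), so the vehicle mean was 4.61 times the gigantol mean.

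**Figure D1:**
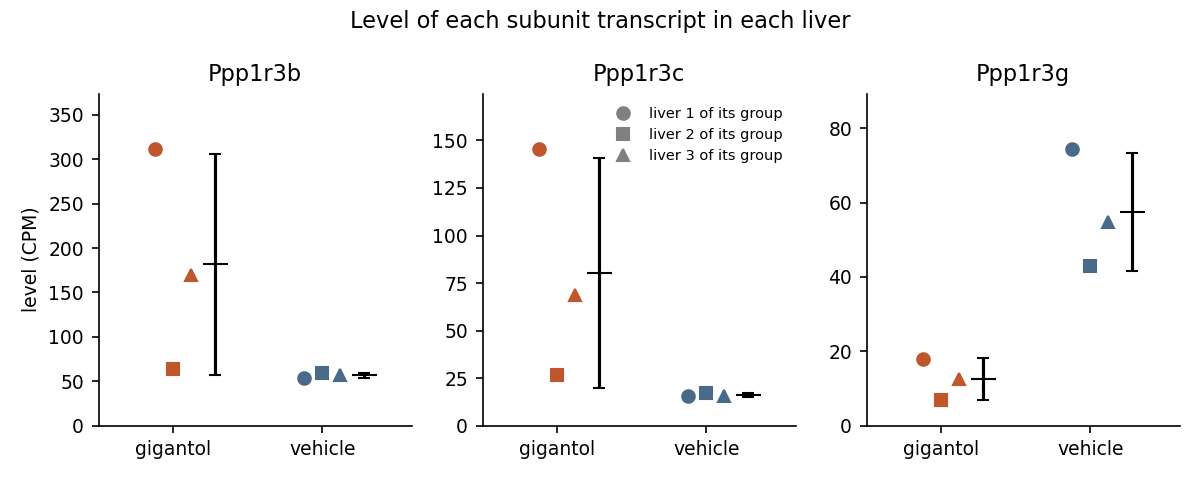
Level of each subunit transcript (CPM, linear axis from 0) in each gigantol and vehicle liver, with 1 point per liver and the mean ± SD (n = 3) beside them. Gigantol livers reached 312 CPM for Ppp1r3b and 146 CPM for Ppp1r3c, above all vehicle livers, and stayed at or below 18.0 CPM for Ppp1r3g, below all vehicle livers.

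limma on log2(CPM + 1), fitted to the whole table, gave changes, gigantol minus vehicle, of 1.39 ± 0.60 (SE) for Ppp1r3b, 1.93 ± 0.60 for Ppp1r3c and −2.17 ± 0.50 for Ppp1r3g. Of the 201 genes it tested, 55.2% passed an adjusted p of 0.05, 19.9% being higher and 35.3% lower in gigantol livers; with TMM scaling over the listed genes the split was 73 higher and 13 lower genes. Without that scaling, Ppp1r3c and Ppp1r3g were among the genes that passed and Ppp1r3b was not. As the table was selected on these livers, those shares and calls are circular. The authors' deposited table, selected on fold change and unadjusted p, gave Ppp1r3b, Ppp1r3c and Ppp1r3g log2 fold changes of 1.69, 2.32 and −2.20. Their FDRs there were 0.0347, 0.000702 and 2.37e-06. By that FDR at a threshold of 0.05, all 3 were called, beside 28.6% of the 119 listed genes that were higher and 24.4% of the 213 that were lower in gigantol livers (25.9% of the 332). The groups did not overlap for 65.5% of the higher and 75.6% of the lower genes, 72.0% of all listed. Since the genes were chosen from this contrast, nothing is read from these counts.

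The subunits differed in how much the livers of 1 group varied. Across gigantol livers the highest level was 4.92 times the lowest for Ppp1r3b, 5.49 times for Ppp1r3c and 2.65 times for Ppp1r3g, where the median over the 214 listed genes averaging 1 CPM or more was 2.24. Of those 214 genes, 33, 20 and 89 had a wider gigantol range than Ppp1r3b, Ppp1r3c and Ppp1r3g. Across vehicle livers the same figure was 1.09, 1.11 and 1.73, against a median of 1.86, and only 1 of the 214 was tighter than Ppp1r3b and 6 than Ppp1r3c. The 214 genes include low ones, where counting error is larger in proportion, and these ranges were not corrected for it. Ppp1r3b and Ppp1r3c were nearly level in vehicle livers and spread widely in gigantol livers.

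Within the gigantol group all 3 transcripts ranked the livers alike, with liver 1 highest, then liver 3, then liver 2. Ppp1r3g therefore had its higher gigantol levels in the livers where Ppp1r3b and Ppp1r3c were high, although its group difference had the opposite sign. The same ranking was seen in 38 of the 214 genes (17.8%), so it was not rare. Liver 2 was the gigantol liver nearest to vehicle for 95 of the 214 (44.4%).

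Ratios within a liver do not depend on how its library was scaled, and transcript length cancels when they are compared between livers. The ratio of Ppp1r3b to Ppp1r3c in CPM was 2.14, 2.39 and 2.48 in gigantol livers 1, 2 and 3, against 3.43, 3.42 and 3.66 in vehicle livers 1, 2 and 3. It was lower in every gigantol liver than in any vehicle liver. In log2 it averaged 1.22 ± 0.11 in gigantol and 1.81 ± 0.053 in vehicle livers (SD, n = 3 each), a difference of −0.59. Both levels moved several-fold among gigantol livers, with SDs of 1.15 and 1.21 on the log2(CPM + 1) scale, while their log2 ratio had an SD of 0.11.

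Against Ppp1r3g both other subunits shifted by much more. The ratio of Ppp1r3b to Ppp1r3g in CPM was 17.3, 9.31 and 13.6 in gigantol livers 1, 2 and 3, against 0.727, 1.37 and 1.03 in vehicle livers 1, 2 and 3. Its log2 mean was 3.70 ± 0.45 in gigantol and 0.014 ± 0.46 in vehicle livers (SD, n = 3 each), a 12.8-fold difference. The ratio of Ppp1r3c to Ppp1r3g was 8.07, 3.90 and 5.47 in gigantol livers and 0.212, 0.400 and 0.283 in vehicle livers, in the same order of livers. Its log2 mean was 2.48 ± 0.53 in gigantol and −1.79 ± 0.46 in vehicle livers (SD, n = 3 each), a 19.3-fold difference. Neither ratio overlapped between the groups, which the choice of genes that lay apart in opposite directions had already fixed.

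**Figure D2:**
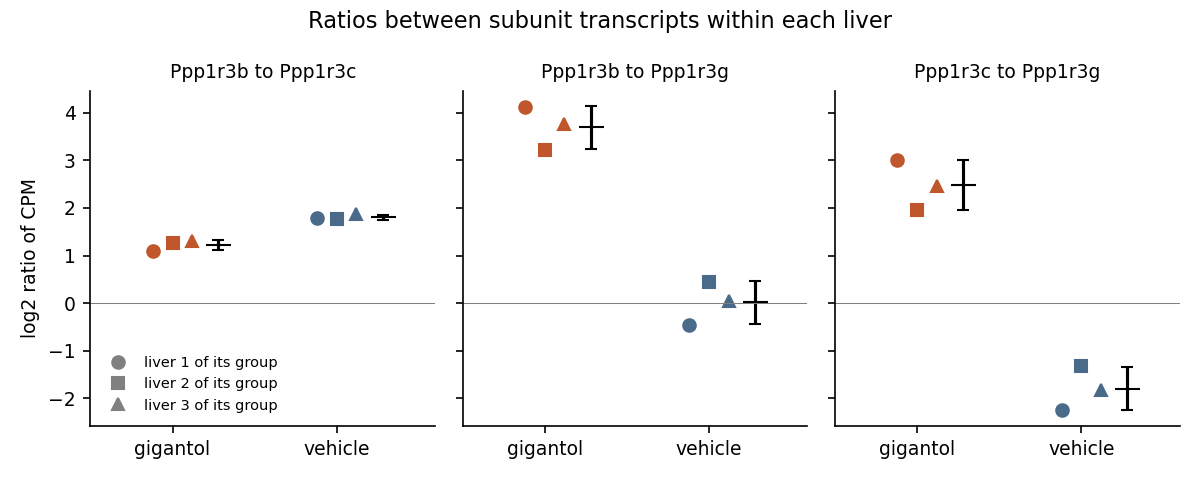
Log2 ratio of the CPM of 2 subunit transcripts within each gigantol and vehicle liver, with 1 point per liver and the mean ± SD (n = 3) beside them. The ratio of Ppp1r3b to Ppp1r3c differed by −0.59 between the groups, and those of Ppp1r3b and Ppp1r3c to Ppp1r3g by 3.68 and 4.27.

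Levels of different genes were compared per kb of transcript, using the longest basic GENCODE transcript of each gene (4.386 kb with 3 exons for Ppp1r3b, 2.725 kb with 2 exons for Ppp1r3c, 2.389 kb with 2 exons for Ppp1r3g). In gigantol livers the level was 41.4 ± 28.4 CPM per kb for Ppp1r3b, 29.4 ± 22.2 for Ppp1r3c and 5.21 ± 2.35 for Ppp1r3g. In vehicle livers it was 12.9 ± 0.541, 5.93 ± 0.339 and 24.0 ± 6.65 CPM per kb for the same genes (SD, n = 3 each). Ppp1r3g was thus the lowest of the 3 in each gigantol liver and the highest of the 3 in each vehicle liver. The order of Ppp1r3b and Ppp1r3c in gigantol livers hung on the length used: per kb of all merged exons their means were 29.2 and 29.4.

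As shares of the 3 subunits per kb, Ppp1r3g made up 5.72%, 10.5% and 7.58% in gigantol livers 1, 2 and 3, against 63.2%, 47.7% and 55.2% in vehicle livers 1, 2 and 3. Ppp1r3b made up 54.4% ± 1.41 in gigantol and 30.6% ± 5.28 in vehicle livers, and Ppp1r3c 37.6% ± 2.48 in gigantol and 14.1% ± 2.51 in vehicle livers (SD, n = 3 each). Among gigantol livers the Ppp1r3b and Ppp1r3c shares varied little, while the Ppp1r3g share did so more in proportion. The summed level was 132, 27.0 and 69.1 CPM per kb in gigantol livers 1, 2 and 3, against 49.3, 37.7 and 41.5 in vehicle livers 1, 2 and 3. The groups overlapped in this sum, which in gigantol liver 2 was below all vehicle livers. The shares of Ppp1r3g had to lie apart between the groups given how the genes were chosen, and nothing is read from it.

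**Figure D3:**
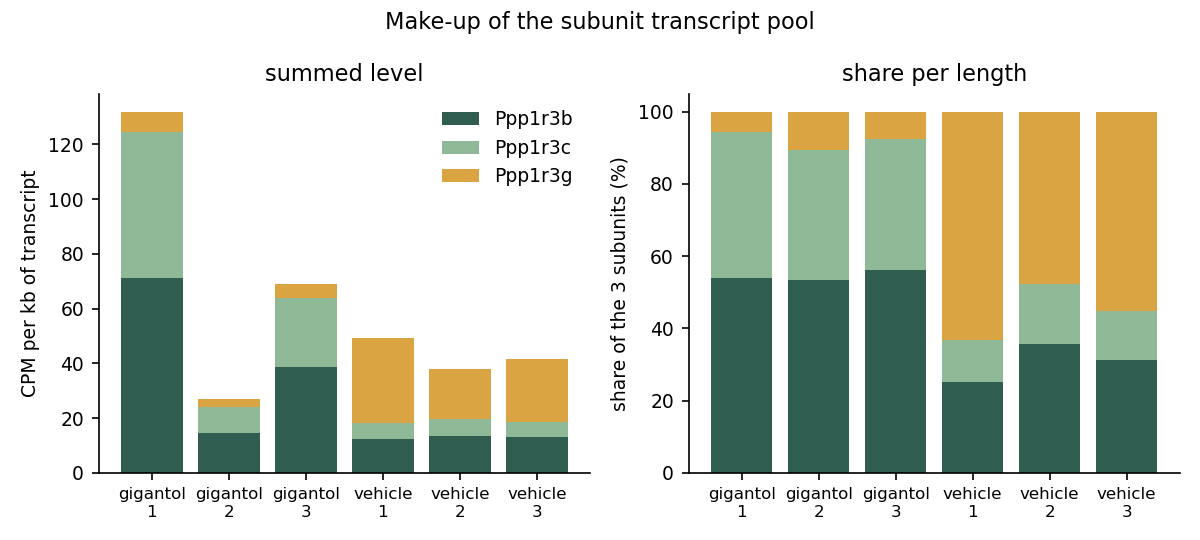
Left, summed level of the 3 subunit transcripts (CPM per kb of transcript) in each gigantol and vehicle liver, and right, the share of each subunit (%). The sum ranged from 27.0 to 132 CPM per kb in gigantol and from 37.7 to 49.3 in vehicle livers, while the Ppp1r3g share was at most 10.5% in gigantol and at least 47.7% in vehicle livers.

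Of a list of 42 genes of glycogen synthesis, breakdown and its control, 4 were among the genes analysed here, namely the 3 subunits and G6pc, the enzyme that releases free glucose from its phosphate. The glycogen synthase, phosphorylase and phosphatase 1 catalytic genes of the list were not analysed here. The authors' deposited table has all 4 below an FDR of 0.05, 2 of them higher and 2 lower in gigantol livers. Their median authors' log2 fold change was 0.042, against −1.15 over all 332 genes. As 3 of the 4 are the chosen subunits themselves, nothing is read from that median. Of 34 genes of insulin, glucagon and glucose control, 7 were analysed here, and all 7 were lower and passed that FDR, with a median of −1.60. Of all 332 listed genes 213 were lower, and 24.4% of those 213 passed it. Those named by level were Igfbp1, G6pc, Txnip, Sgk1 and Irs2. These lists were drawn up with earlier results of these data known.

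The gigantol livers in which Ppp1r3b and Ppp1r3c were high were those in which G6pc was low. G6pc had 74.6, 294 and 123 CPM in gigantol livers 1, 2 and 3, against 632, 443 and 425 CPM in vehicle livers 1, 2 and 3. Irs2, an insulin receptor substrate, had 4.71, 19.9 and 10.5 CPM in gigantol livers and 46.4, 28.6 and 31.5 CPM in vehicle livers. Both ranked the gigantol livers 2, 3, 1, the reverse of the subunits. With Txnip, Sgk1 and Socs2, 5 of the 7 genes of the glucose control list had this ranking, against 52 of the 214 genes (24.3%). All 7 were lower in gigantol livers, and of the 132 lower genes among the 214, 37 had it (28.0%). The 95% intervals of gigantol livers 2 and 3 overlapped for Txnip, and those of gigantol livers 1 and 3 for Sgk1 and Socs2. For G6pc and Irs2 no gigantol intervals overlapped. The place of Txnip, Sgk1 and Socs2 in that ranking was thus not clear of counting error. Igfbp1, a secreted binding protein repressed by insulin, and Trib3 did not share that ranking. Socs2 and Trib3 are named after their values were seen. Igfbp1 had 69.4, 109 and 195 CPM in gigantol livers 1, 2 and 3, against 1122, 431 and 309 CPM in vehicle livers 1, 2 and 3. Any part of these genes in the subunit differences was not tested.

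The only other listed gene whose symbol starts with Ppp1 was Ppp1r10 (ENSMUSG00000039220), which encodes PNUTS, a subunit that holds phosphatase 1 in the nucleus and is not known as a glycogen-targeting one. It had 38.8, 22.0 and 52.4 CPM in gigantol livers 1, 2 and 3, against 18.1, 13.3 and 11.2 CPM in vehicle livers 1, 2 and 3. Its groups did not overlap either, and liver 2 was again the lowest of the gigantol livers. The authors' deposited table gave it a log2 fold change of 1.42 and an FDR of 0.00753.

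**Figure D4:**
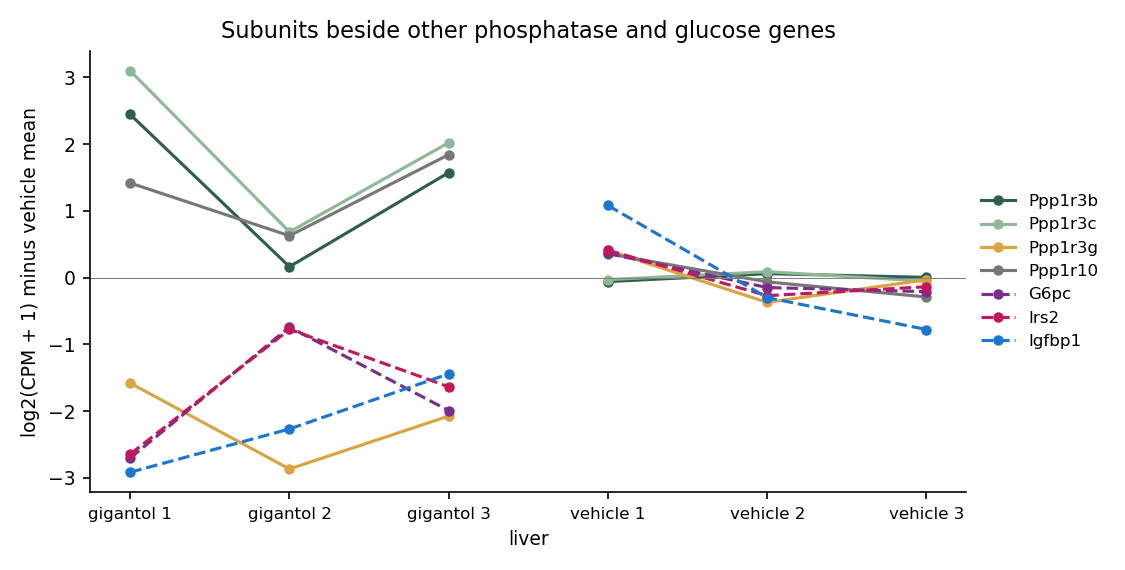
Level of the 3 subunits, Ppp1r10, G6pc, Irs2 and Igfbp1 in each gigantol and vehicle liver as log2(CPM + 1) minus the gene's vehicle mean, where lines join livers of 1 group and mark no order. In gigantol liver 2 Ppp1r3b stood 0.16 and Ppp1r3c 0.68 above their vehicle means, and Ppp1r3g 2.87 below its own (−2.87).

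Genes with the most similar profile over the 6 livers were taken as those with the smallest root-mean-square difference in log2(CPM + 1) relative to each gene's vehicle mean. For Ppp1r3b these were Cd300e, an immune receptor of myeloid cells (0.24), the noncoding RNA gene Gm10874 (0.33), Ppp1r3c (0.39), the pseudogene Gm5834 (0.39) and Zfand4 (0.43), where the median over listed genes of at least 1 CPM was 1.68. For Ppp1r3c they were Gm5834 (0.39), Ppp1r3b (0.39), the pseudogene Gm14253 (0.50), Gm10874 (0.53) and Cd300e (0.58), with a median of 2.04. Ppp1r3b and Ppp1r3c thus stood at ranks 2 and 3 in each other's order. For Ppp1r3g they were Nupr1, a stress-induced nuclear protein (0.47), Ppbp, a platelet chemokine (0.48), Acot3, an acyl-CoA thioesterase (0.52), Ctps2, a CTP synthase (0.58), and the pseudogene Gm8730 (0.62), with a median of 1.23. Ppp1r3g stood at rank 202 in the orders of both Ppp1r3b and Ppp1r3c. This measure takes in the group difference, from which the 3 genes were chosen. Their ranks to each other were thus largely fixed by that choice, and nothing is read from them. Small differences also arise between genes of low level, and Cd300e and Gm10874 had 1.03 and 0 CPM in gigantol liver 2.

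In whole liver, fewer cells of a type and less RNA per cell cannot be told apart. None of 8 hepatocyte markers was analysed here, so the tissue label was not checked against them. Among markers of other cells, 5 of 6 erythroid ones summed to 347 to 632 CPM in gigantol and 552 to 1910 CPM in vehicle livers. Marco, the 1 of 7 macrophage markers, was at 1.55 to 3.71 CPM in gigantol and 8.21 to 8.89 CPM in vehicle livers. Des and Lrat, 2 of 6 stellate cell markers, summed to 6.81 to 11.9 CPM in gigantol and 13.1 to 24.5 CPM in vehicle livers. Cd79a and Nkg7, 2 of 5 lymphocyte markers, summed to 0.471 to 0.564 CPM in gigantol and 1.13 to 1.54 CPM in vehicle livers. None of these markers was at 0 in all livers, no marker of endothelial, biliary, neutrophil, muscle, fat or acinar cells was analysed here, and their part in the subunit differences was not tested. The markers with values here were listed because they differed between the groups, so nothing is read from their differences.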

How the data were processed

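RNA-seq of 3 gigantol and 3 vehicle mouse livers was analysed, grouped by the treatment label. The submitters' processing notes list HISAT2, fastp and DESeq2 1.16.1 without saying what each did, and name GRCh38, a human build. How reads were counted, and on which annotation, is not stated in those notes or the labels. The deposited table holds CPM, a unit read from the values: all were whole multiples of 1 fitted step per library within 0.1 reads. It also holds log2 fold changes and p-values with FDRs from the authors' own comparison, deposited per the file headers. The ratio of FDR to p in its first row gives 13192 genes adjusted over by the authors. Other genes were not analysed here.

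limma 3.58.1 (R 4.3.3) was run on log2(CPM + 1), keeping genes that reached 1 CPM in 3 or more livers. Moderation was trended and robust, with Benjamini-Hochberg adjustment at 0.05. The fit covered 201 genes, all preselected on these livers, so its calls are circular and its p-values are not printed. The code was also run on simulated counts in which most genes were unchanged, unlike the listed genes. That run does not bear on these calls. A fold change on the log2(CPM + 1) scale understates that of low genes. Ratios, shares and lengths were computed in Python 3.11.15, with transcript lengths and gene types from GENCODE on GRCm38, matched by gene ID. Named genes were the 3 subunits, all listed genes whose symbol starts with Ppp1, up to 5 per list by level and the 5 nearest profiles of each subunit. The subunits and lists were chosen with earlier results of these data known. Alternatives were other pseudocounts, no filter, no trend or robust option, another scaling, a replicate block and leaving out each liver.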

Additional observations from a re-analysis of the deposited data

How the results depend on the processing

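The direction of all 3 subunit changes and all 3 ratio differences was the same in each alternative that gave them. No subunit or ratio overlapped between the groups, so leaving out 1 liver could not reverse a sign. The balanced replicate block leaves each estimate as it was. The subunit changes were not taken from the fits without the filter or without the trend and robust options. Leaving out 1 liver gave limma log2 changes of 0.87 to 2.01 for Ppp1r3b, 1.35 to 2.56 for Ppp1r3c and −2.47 to −1.83 for Ppp1r3g, and log2 ratio differences of −0.63 to −0.52 (Ppp1r3b to Ppp1r3c), 3.45 to 3.92 (Ppp1r3b to Ppp1r3g) and 4.00 to 4.53 (Ppp1r3c to Ppp1r3g). With TMM scaling over the listed genes, themselves selected as changed, the log2 changes were 1.97, 2.49 and −1.62 for Ppp1r3b, Ppp1r3c and Ppp1r3g. This scaling divided gigantol levels by 0.79 to 0.86 and vehicle levels by 1.17 to 1.31, which raises gigantol against vehicle levels by construction. The median of all listed genes, without the filter, shifted by 0.23 on the log2(CPM + 1) scale, which understates changes of low genes. Why the factors differ between the groups was not tested. limma's count of listed genes past 0.05 was 111 (40 higher, 71 lower), 86 with TMM scaling (73 higher, 13 lower) and 169 of 332 without the filter. It was 25 to 119 with 1 liver left out, with 43 and 46 without gigantol livers 1 and 3 and 25 and 26 without vehicle livers 2 and 3. The replicate numbers name livers only: same-numbered deviations correlated at 0.128, 0.149 and −0.105 over 201 genes. With the replicate block the count was 128 and the subunit changes were 1.39, 1.93 and −2.17. A count test on reads worked out from the CPM, planned as an alternative, was not run. Whole reads could not be established from the lowest values alone in every vehicle library. Vehicle livers 1 and 2 had 90 and 89 such values, under the 100 required. In vehicle liver 3 only 27.8% of them were whole multiples of the step fitted from its smallest value, 0.0942 CPM. That step differed from the 0.0434 CPM of the first fit, of which all its values were whole multiples within 0.1 reads. The subunit value with the fewest inferred reads, Ppp1r3g in gigantol liver 2, rested on 145.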
